A study of Mus musculus with 6 samples.

Results

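The genes described here are 37 type I interferon response genes, taken by symbol from a table of 53647 genes. No symbol occurred on more than 1 row. They were measured by RNA sequencing of macrophages from pancreatic ductal adenocarcinomas grown orthotopically in C57BL/6 mice. The cells were sorted by Cxcr4, the receptor for the chemokine Cxcl12, into Cxcr4+ and Cxcr4- macrophages, with 3 libraries of each. Both groups came from tumour-bearing mice of the same model, and no treatment other than the tumour was labelled. The labels do not name the other sort markers. Nor do they say if each library had its own mouse, and p-values here therefore reflect only the spread among these libraries, which may be technical.

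Type I interferons are secreted proteins that bind a receptor made of Ifnar1 and Ifnar2. The receptor's kinases Jak1 and Tyk2 activate Stat2, which acts with Irf9 in the complex ISGF3. ISGF3 binds the interferon-stimulated response element (ISRE) in the promoters of many genes whose products sense, degrade or block viral nucleic acids. Macrophages can both produce and respond to these interferons, and many of the genes keep a basal level without infection.

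The promoters of the genes were searched for that element. A RefSeq window of 300 bases (build GRCm38.p6; 250 before to 50 after the transcript start) was matched by symbol for 28 of the 37 genes. The ISRE core, spelled GAAA, any 2 bases, GAAA and searched on both strands, occurred in a window of 15 of the 28 (53.6%) and of 3.99% of all 27025 genes with such a window. Of the 25 matches in the windows of the listed genes, 7 overlapped another match. The core of the gamma-activated site, TTCNNNGAA, which reads the same on both strands, occurred in 9 of the 28 (32.1%) and in 9.55% of all genes, and 2 of its 9 matches overlapped an ISRE core. A match describes the letters in a window and is not evidence of binding. The 5 stretches printed here belong to genes on which the comparison below turns, the IFIT genes Ifit1, Ifit3 and Ifit3b, Isg15 and the receptor gene Ifnar1. Each is 100 bases long, 5′ to 3′ on the gene's strand, and capitals mark the ISRE core on either strand. The stretches were placed to hold the ISRE cores, so their distances differ. They run from 140 to 41 bases before the start for Ifit1, 184 to 85 for Ifit3, 216 to 117 for Ifit3b and 117 to 18 for Isg15. Ifnar1, which has no ISRE core in its window, is shown from 100 to 1 bases before the start.
Ifit1 (chr19:34640749-34640848, forward strand): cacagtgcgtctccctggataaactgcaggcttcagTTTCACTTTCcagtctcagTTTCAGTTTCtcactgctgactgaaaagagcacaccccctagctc
Ifit3 (chr19:34583345-34583444, forward strand): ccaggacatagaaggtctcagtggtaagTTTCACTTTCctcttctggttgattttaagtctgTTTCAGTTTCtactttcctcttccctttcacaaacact
Ifit3b (chr19:34607741-34607840, forward strand): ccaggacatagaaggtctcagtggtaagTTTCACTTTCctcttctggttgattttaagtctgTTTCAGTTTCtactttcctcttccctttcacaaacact
Isg15 (chr4:156200836-156200935, reverse strand): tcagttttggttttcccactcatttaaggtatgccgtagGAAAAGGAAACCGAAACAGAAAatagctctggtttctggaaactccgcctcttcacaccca
Ifnar1 (chr16:91485115-91485214, forward strand): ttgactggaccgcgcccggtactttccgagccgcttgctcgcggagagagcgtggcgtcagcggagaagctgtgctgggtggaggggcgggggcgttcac

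The Ifit3 and Ifit3b stretches, taken from a run of 169 bases that both windows share, were identical and carried the same 2 ISRE cores. At the best ungapped shift the windows were 75% identical over 268 bases. Ifit1 also carried 2, and Isg15 carried 3 that overlap one another. Ifnar1 had no ISRE core in its window, nor had Ifit2 in its 2 windows or Isg20 in its 3. Each of these 3 genes had a match to the gamma-activated site core.

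Library totals ran from 46444934 to 55740671 estimated counts, and the 3 Cxcr4+ totals were the largest. Transcripts that define macrophages were abundant in all of them: Lyz2, the macrophage lysozyme, stood at 6344 ± 865 FPKM (fragments per kilobase of transcript, scaled to library depth; SD, n = 6) and Csf1r, which binds the growth factor Csf1, at 79.5 ± 9.76 FPKM. Mrc1, the mannose receptor, was near the detection floor, at 0 to 35 counts. Cxcr4 itself had 9.04 to 9.59 FPKM in Cxcr4+ and 5.97 to 8.56 FPKM in Cxcr4- libraries, without overlap, but its difference did not pass (log2 fold change 0.27, SE 0.19, edgeR's adjusted p = 0.999). The counts of both libraries numbered 2 gave a chi-square of 16.5 per degree of freedom, and either of them with any of the other 4 gave 20.4 to 32.1. Pairs among the other 4 gave 11.7 to 17.8, a range that holds the 16.5.

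The interferon response genes were detected in both populations for 36 of 37, and none of them passed the test between the populations. In these bulk libraries, fewer cells expressing a gene and less RNA per cell cannot be told apart. Of the 37, 18 had a mean of at least 10 FPKM, 15 a mean from 1 to 10 and 4 a mean under 1. The cell-membrane factors Ifitm3 (1331 ± 127 FPKM over the 6 libraries, SD), Bst2 (417 ± 44.6) and Ifitm2 (337 ± 26.9) were the most abundant. Ifi205, a PYHIN family protein, was listed at 0 counts in every library, below a floor of 3 fragments (12 counts) that covers counting error only. The other 36 genes entered the test, and 0 of them passed an adjusted p under 0.05 by edgeR's quasi-likelihood test, against 0.0312% of the 16031 genes tested. DESeq2 also passed 0 members, against 0.405% of all genes. At an unadjusted p under 0.05, edgeR gave 2 members, Ifnar1 and Isg20, or 5.56% of the 36 against 4.85% of all genes, and DESeq2 gave 3, with Ifit3 added, against 5.61%.

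The log2 fold change of Cxcr4+ against Cxcr4- was positive for 21 of the 36 (58.3%) and for 50.1% of all genes. Its median was 0.06 over the 36 and 0.00 over all genes, and the median of its size was 0.14 in both. For 30 of the 36 the 95% interval lay within -1 to 1, which leaves out a 2-fold difference in either direction. The 6 others were Ifit1, Ifit2, Ifit3, Ifit3b, Mx1 and Oas2. The sign of the fold change was the same in all 6 fits that left out 1 library for 17 members, 13 of them positive and 4 negative. These fits share libraries. Neither this count nor that of the intervals was set beside all genes, so neither can be called particular to the members. The balance of signs moved with the library left out. It was 19, 31 and 15 positive of 36 on leaving out Cxcr4+ replicates 1, 2 and 3, and 26, 13 and 25 on leaving out Cxcr4- replicates 1, 2 and 3. Over all genes the positive share in these fits was 50.1, 49.4 and 50.6%, and 50.7, 51.4 and 50.3%.

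**Figure D1:**
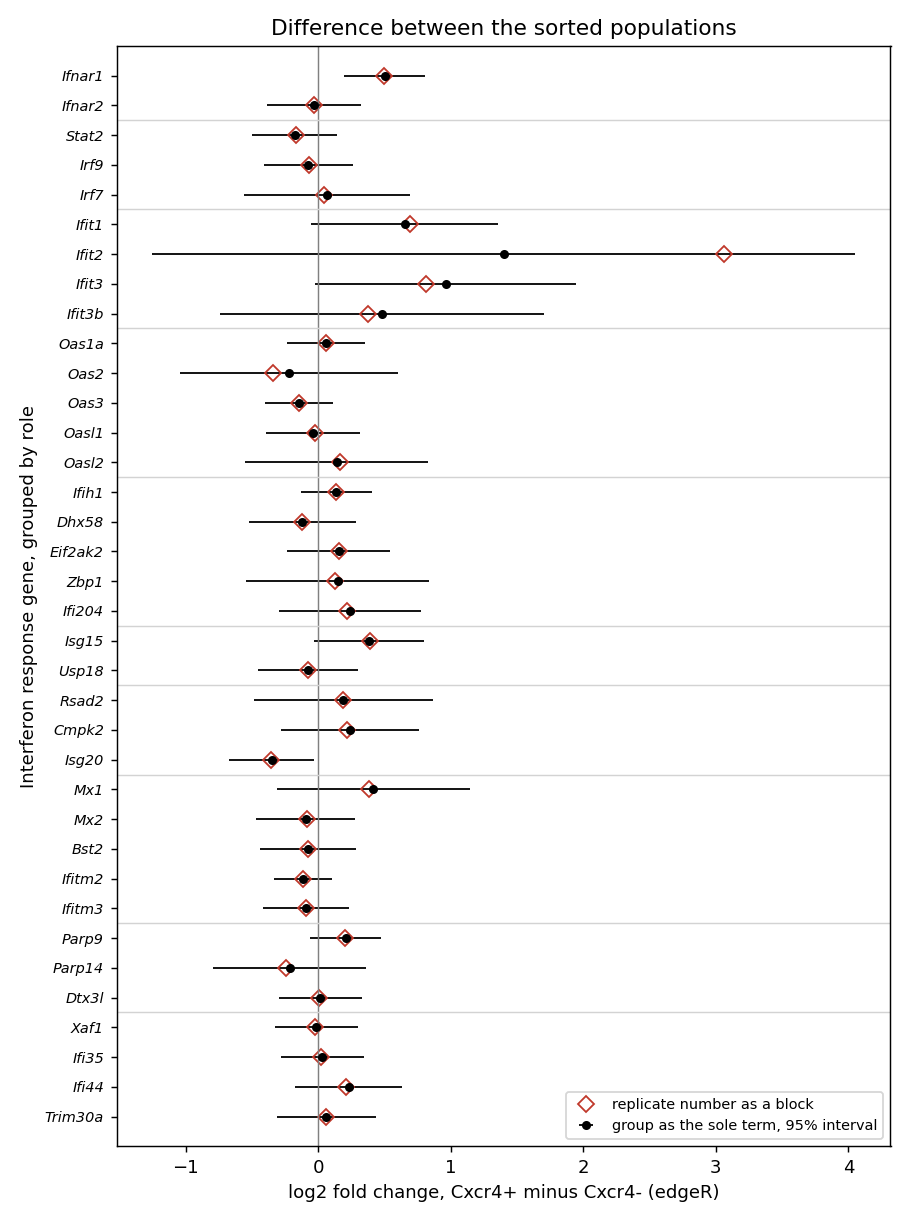
Each row is a gene, grouped by role between grey lines, and the x axis is the log2 fold change of Cxcr4+ minus Cxcr4- from edgeR. Black points and bars are the fit with group as the sole term and its 95% interval, and red diamonds the fit with the replicate number as a block. Most points lie near 0, the 4 IFIT genes lie to the right, and the interval of Ifit2 is the widest.

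The 2 receptor subunits differed in their pattern. Ifnar1, the signalling subunit that lies on the forward strand of chromosome 16 at 91282126 to 91304329 (GRCm39, as for all gene positions of the deposited table), had 8.33, 7.18 and 8.59 FPKM in Cxcr4+ libraries 1, 2 and 3. In Cxcr4- libraries 1, 2 and 3 it had 5.31, 5.46 and 6.21 FPKM. All Cxcr4+ values lay above all Cxcr4- values, so the Cxcr4+ library was by necessity also higher in each pair with the same number. The ratio of means was 1.42 and the log2 fold change 0.50 (SE 0.13, 95% interval 0.20 to 0.81, edgeR's adjusted p = 0.953), so it did not pass. Leaving out 1 library gave 0.43 to 0.61. In the fit blocked on replicate number it was 0.50 (unadjusted p = 0.00115, edgeR's adjusted p = 0.357), and DESeq2 gave an adjusted p of 0.149, the smallest of any member in that fit. Ifnar2, the high-affinity ligand-binding subunit, had 13.1 to 16.1 FPKM in Cxcr4+ and 13.5 to 16.7 in Cxcr4- libraries. Its groups overlapped almost fully (log2 fold change -0.03, SE 0.15).

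Among all 36 members the groups did not overlap for 5. Higher in every Cxcr4+ library were Ifnar1, Ifit1, Ifit3 and Isg15, which is 11.1% of the members against 5.50% of all genes tested. Isg20, an exonuclease that degrades RNA, was lower in every Cxcr4+ library (2.78% of the members against 4.87% of all genes).

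Some IFIT proteins bind viral RNA that lacks host cap marks, and the IFIT genes lie together on chromosome 19. All 4 listed IFIT genes had a positive log2 fold change, from 0.48 to 1.40, and 0 passed (the lowest of edgeR's adjusted p-values was 0.999). Ifit1, which binds the uncapped or unmethylated RNA end, had 0.863, 0.743 and 0.778 FPKM in Cxcr4+ and 0.520, 0.346 and 0.629 in Cxcr4- libraries. Its groups did not overlap, with a log2 fold change of 0.65 (SE 0.30, 95% interval -0.05 to 1.36). The counts behind it were small, at 116 to 145 against 52 to 88. The related chromosome 19 gene Ifit1bl2, which is not among the 37 and shares 7.06% of the 50-base stretches of Ifit1, had 4, 4 and 29 counts in Cxcr4+ and 37, 26 and 21 in Cxcr4- libraries. Its log2 fold change was negative, at -1.27 (SE 0.87), and its groups overlapped. Ifit1bl1, at 0 to 36 counts, was too low to be tested.

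Ifit2 separated the libraries more than any other member, and the split did not match the sort. It had 6.95, 4.48 and 6.72 FPKM in Cxcr4+ libraries 1, 2 and 3. In the Cxcr4- libraries it had 0.249, 0.233 and 6.35 FPKM, from 56, 52 and 1307 counts. Cxcr4- library 3 thus stood with the Cxcr4+ libraries, and its 2 companions were lower than any other library by a wide margin. The highest value was 29.8 times the lowest. The log2 fold change was 1.40 (SE 1.14, 95% interval -1.25 to 4.05, edgeR's adjusted p = 0.999), and 3.06 in the fit blocked on replicate number (edgeR's adjusted p = 0.519). Without Cxcr4- replicate 3 it was 4.64 and passed (edgeR's adjusted p = 0.0406). Leaving out Cxcr4- replicate 1 gave 0.87, and leaving out Cxcr4- replicate 2 gave 0.86. DESeq2 returned no p-value for Ifit2. The gene spans 34528094 to 34553819 on the forward strand of chromosome 19, and it overlaps no other gene of the deposited table. No 50-base stretch of its transcripts (GENCODE M21) recurs in another gene.

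Ifit3 had 2.72, 1.03 and 1.12 FPKM in Cxcr4+ and 0.851, 0.737 and 0.902 in Cxcr4- libraries. The groups did not overlap, but Cxcr4+ library 1 stood apart at 300 counts, against 72 to 115 in the other 5. The log2 fold change was 0.96 (SE 0.42, edgeR's adjusted p = 0.999) and 0.34 without Cxcr4+ replicate 1. That library also had the most fibroblast transcripts: the summed FPKM of 10 fibroblast markers was 16.4 there and 2.24 to 3.97 in the other 5 (1 of the 10, Lum, was at 0 in every library), and the part of these cells in the Ifit3 value was not tested. Ifit3b, a close copy of Ifit3, had only 16 to 45 counts, with 0.129 to 0.354 FPKM in Cxcr4+ and 0.161 to 0.181 in Cxcr4- libraries. Its highest value was also in Cxcr4+ library 1, and its log2 fold change of 0.48 became 0.08 without it. Of the 50-base stretches of Ifit3 transcripts 51.2% recur in Ifit3b, so the split of reads between these genes is uncertain.

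**Figure D2:**
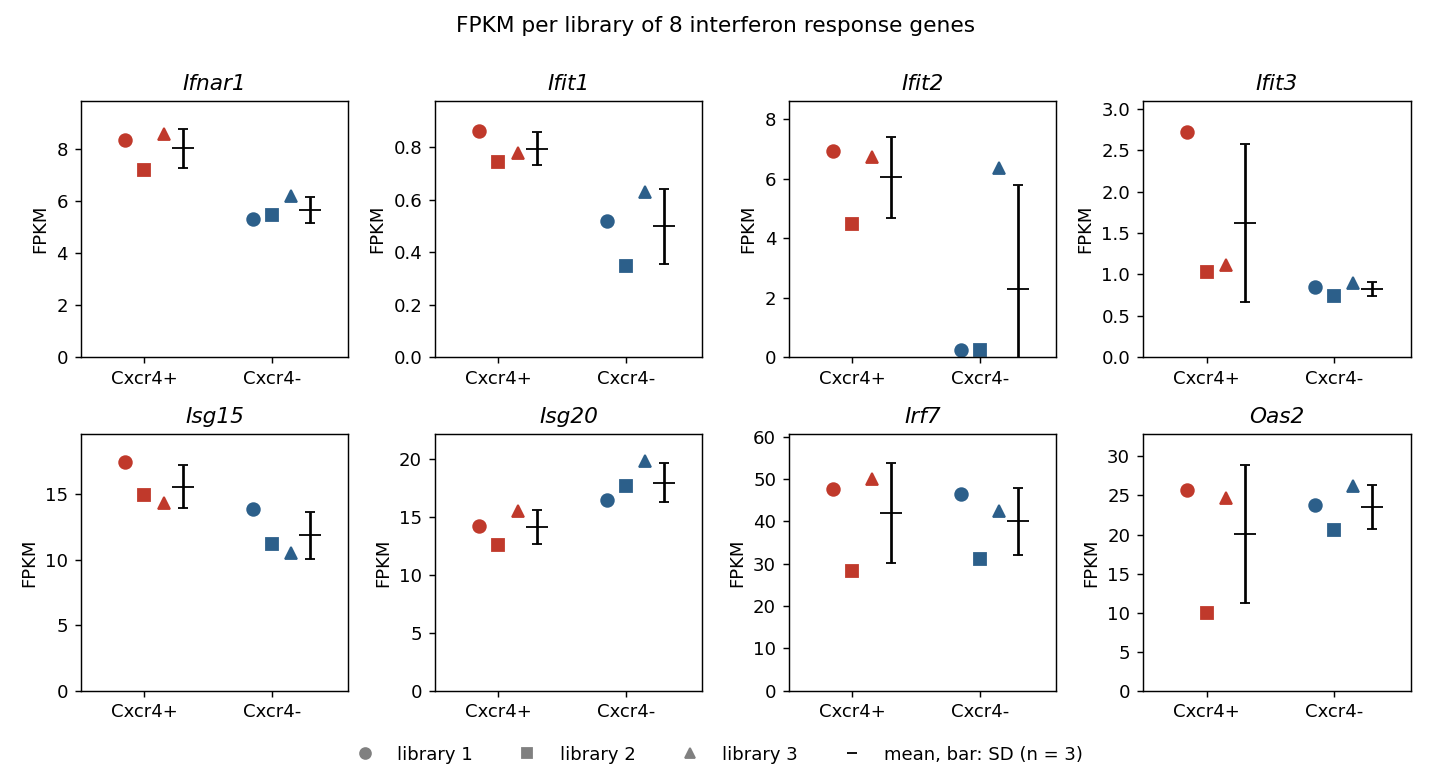
FPKM per library (y axis from 0) of 8 members, Cxcr4+ in red and Cxcr4- in blue, with the library number as the symbol and the group mean ± SD (n = 3) in black; the SD bar of Ifit2 is clipped at 0. Ifnar1, Ifit1, Ifit3 and Isg15 lie higher and Isg20 lower in Cxcr4+ libraries without overlap, Ifit2 is near 0 in 2 Cxcr4- libraries, and Irf7 is lowest in library 2 of both groups.

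Isg15 encodes a ubiquitin-like protein that is attached to other proteins and is also secreted. It had 17.4, 14.9 and 14.4 FPKM in Cxcr4+ and 13.9, 11.2 and 10.5 in Cxcr4- libraries. The groups came close, with 14.4 as the lowest Cxcr4+ value and 13.9 as the highest Cxcr4- value. The log2 fold change was 0.38 (SE 0.18, 95% interval -0.03 to 0.80, edgeR's adjusted p = 0.999). With the replicate number as a block it was 0.39 (unadjusted p = 0.0144, edgeR's adjusted p = 0.485). Usp18, the protease that removes Isg15 and restrains the receptor, was more abundant per length, at 39.8 ± 5.14 FPKM against 41.8 ± 4.84 (n = 3 each). It did not share the direction of Isg15 (log2 fold change -0.08, SE 0.16).

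Enzymes acting on nucleotides and RNA went in both directions. Isg20 had 14.2, 12.6 and 15.6 FPKM in Cxcr4+ and 16.5, 17.6 and 19.8 in Cxcr4- libraries. It was the one member below every Cxcr4- value in all Cxcr4+ libraries, with a log2 fold change of -0.35 (SE 0.14, 95% interval -0.67 to -0.03, edgeR's adjusted p = 0.998). Tumour epithelial markers also had lower sums in Cxcr4+ libraries, with a summed FPKM over 11 genes of 1.84 to 3.42 against 3.62 to 6.36 (Tff1 was at 0 in every library). Their part in the Isg20 value was not tested. Rsad2, the radical SAM enzyme viperin, had 5.22, 3.19 and 5.23 against 4.63, 2.79 and 4.48 FPKM. Each Cxcr4+ library of Rsad2 was above its same-numbered Cxcr4- library, yet the spread within a group was larger than that gap (log2 fold change 0.19, SE 0.29). Cmpk2, a nucleotide kinase encoded next to Rsad2, had 1.19 to 1.85 against 1.14 to 1.36 FPKM (log2 fold change 0.24, SE 0.22).

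The transcription factors showed no separation by the sort. Irf7, which amplifies interferon production and is itself induced by it, had 47.7, 28.4 and 49.9 FPKM in Cxcr4+ and 46.4, 31.1 and 42.5 in Cxcr4- libraries. Library 2 was the lowest in both groups, and the group means of 42.0 ± 11.9 and 40.0 ± 7.96 FPKM were closer than the libraries within a group. Its log2 fold change was 0.07 (SE 0.27). Stat2 had 4.42 to 4.81 against 4.68 to 6.03 FPKM (log2 fold change -0.18, SE 0.14), with Cxcr4- library 3 the highest. Irf9, the DNA-binding partner in ISGF3, had 6.33 to 7.29 against 6.57 to 8.41 FPKM (log2 fold change -0.07, SE 0.14).

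The OAS family makes or relates to the second messenger 2-5A, which activates RNase L. Its log2 fold changes ran from -0.22 to 0.14, with 2 of 5 positive and 0 past the threshold. Oas1a was the most abundant, at 59.3 ± 3.98 against 56.6 ± 4.98 FPKM (SD, n = 3 each; log2 fold change 0.06, 95% interval -0.23 to 0.35), and 57.6% of its 50-base stretches recur in Oas1g. Oas2 was even in 5 libraries, at 20.5 to 26.2 FPKM, and stood at 9.91 in Cxcr4+ library 2. Its log2 fold change of -0.22 (SE 0.35) turned to 0.12 without Cxcr4+ replicate 2. Oas3 had 34.1 to 38.1 FPKM in Cxcr4+ and 37.8 to 43.3 in Cxcr4- libraries (log2 fold change -0.14, SE 0.11). Oasl1 and Oasl2, OAS-like proteins, had log2 fold changes of -0.04 (SE 0.15) and 0.14 (SE 0.30).

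Of the 6 sensors of foreign RNA or DNA, 5 were tested, 4 of them with a positive log2 fold change and 0 past the threshold. Ifih1 (the RNA sensor MDA5) had 2.65 to 3.18 against 2.57 to 2.91 FPKM (log2 fold change 0.14, SE 0.11). Dhx58 (LGP2, a regulator of MDA5) was the most abundant, at 10.8 to 14.1 against 11.9 to 15.1 FPKM (log2 fold change -0.12, SE 0.17). Eif2ak2, the kinase PKR that halts translation, had 11.4, 10.1 and 13.2 against 9.59, 9.27 and 12.3 FPKM, each Cxcr4+ library above its same-numbered Cxcr4- library. Its log2 fold change was 0.15 (SE 0.17; unadjusted p = 0.0466 and adjusted p = 0.531 with the replicate number as a block, by edgeR). Zbp1, a sensor of Z-form nucleic acid, and the PYHIN protein Ifi204 had log2 fold changes of 0.15 (SE 0.30) and 0.24 (SE 0.23). Both were lowest in library 2 of each group.

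The membrane and dynamin-like restriction factors held the most abundant members and some of the narrowest intervals. Ifitm3 had 1389, 1146 and 1339 FPKM in Cxcr4+ and 1522, 1251 and 1336 in Cxcr4- libraries, a log2 fold change of -0.09 (95% interval -0.42 to 0.23). Ifitm2 gave -0.11 (95% interval -0.33 to 0.10), and 48.5% of its 50-base stretches recur in other genes. Bst2 (tetherin, which holds budding virions on the cell) had 352 to 452 against 378 to 467 FPKM, a log2 fold change of -0.08. The dynamin-like GTPases were scarce: Mx1 had 0.534 ± 0.168 FPKM and Mx2 3.16 ± 0.349 over 6 libraries. Their log2 fold changes were 0.42 (SE 0.31) and -0.09 (SE 0.16).

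Parp9 and Dtx3l form a complex that modifies histones, and Parp14 is a related enzyme. Parp9 had 6.97 to 8.37 against 6.50 to 6.98 FPKM (log2 fold change 0.21, SE 0.12), while Dtx3l had 10.3 ± 1.14 against 10.2 ± 0.909 (SD, n = 3 each; 0.02, SE 0.13). Parp14 had 4.39, 2.52 and 3.83 against 4.67, 3.41 and 4.36 FPKM, each Cxcr4+ library below its same-numbered Cxcr4- library (log2 fold change -0.22, SE 0.25). Parp9 and Dtx3l overlap by 682 bases on opposite strands, and whether the counting used strand is not given in the sources used here. Among the remaining regulators, Ifi44 had 15.7 to 22.4 against 16.3 to 18.6 FPKM (log2 fold change 0.23, SE 0.17). The apoptosis-related Xaf1, Ifi35 and the inflammasome regulator Trim30a had log2 fold changes of -0.01, 0.03 and 0.06.

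The members also varied with the library number. In both groups library 2 held the lowest value for 23 of the 36 members (63.9%), against 14.0% of all genes tested, and in both groups the highest value for 0 members, against 34.0% of all genes. The mean of log2(FPKM + 1), centred on each member's own mean, was 0.14, -0.15 and 0.14 in Cxcr4+ libraries 1, 2 and 3. In the Cxcr4- libraries it was -0.03, -0.19 and 0.09. The Cxcr4+ mean was thus 0.09 above the Cxcr4- mean over all libraries, 0.04 above it between the libraries numbered 2, and 0.12 above it among the other 4. Those gaps rest in part on Ifit2, centred at 1.01, 0.47 and 0.97 in Cxcr4+ and -1.66, -1.68 and 0.90 in Cxcr4- libraries. Medians over the 36 members were 0.09, -0.15 and 0.12 in Cxcr4+ libraries 1, 2 and 3. In Cxcr4- libraries 1, 2 and 3 they were 0.02, -0.15 and 0.08. The mean FPKM of the libraries numbered 2 was below that of the other 4 for 33 of 36 members (91.7%), against 36.4% of all genes tested. The median ratio was 0.836 over the members against 1.08 over all genes. Irf7 (ratio 0.637), Oasl2 (0.608), Zbp1 (0.603), Rsad2 (0.611) and Oas2 (0.606) were among the lowest, and Mx1 (1.21), Ifitm2 (1.07) and Ifih1 (1.03) were the 3 above 1. This split was seen in the data and the labels give the number no meaning, so no test was made of it. Of 9 macrophage markers tested, 2 were lowest in library 2 of both groups, and their centred mean there was 0.06 in Cxcr4+ and 0.01 in Cxcr4-.

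**Figure D3:**
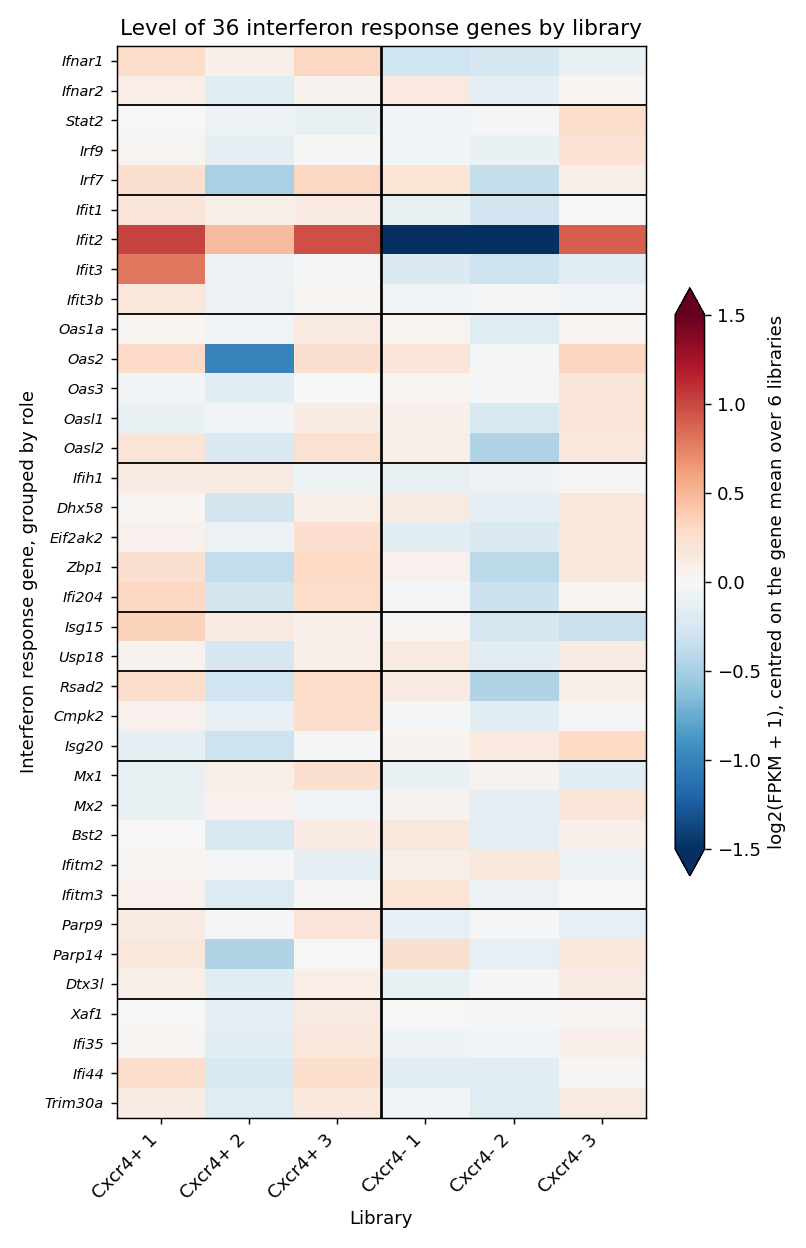
Each row is 1 of the 36 members with counts, grouped by role between black lines, and each column a library, with Cxcr4+ left of the vertical line. Colour gives log2(FPKM + 1) centred on the gene's mean over the 6 libraries, blue for lower and red for higher. Library 2 of both groups is mostly blue, Ifit2 is dark blue in Cxcr4- libraries 1 and 2, and Oas2 in Cxcr4+ library 2.

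With the replicate number as a block, 0 members passed an adjusted p under 0.05 (0% of all genes did). At an unadjusted p under 0.05 there were 8 (22.2% of the members against 9.33% of all genes tested). Ifnar1, Ifit1, Ifit2, Eif2ak2 and Isg15 were positive there and Oas3, Isg20 and Parp14 negative. Their smallest adjusted p was 0.357 by edgeR. In the 4 libraries numbered 1 and 3 alone, 23 of 36 members were positive with a median of 0.08, and 0 passed. The share and median over all genes were not taken for that fit.

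Interferon ligands were close to undetectable. Of 21 listed ligand genes, 20 were at 0 counts in every library, Ifng and all listed interferon alpha genes among them. Ifnb1, interferon beta, had 12, 5 and 26 counts in Cxcr4+ and 12, 0 and 8 in Cxcr4- libraries, so most values lay at or below the floor of 12. Its libraries numbered 2 were the lowest in both groups. Plasmacytoid dendritic cells, a main source of interferon alpha, have markers that were partly absent. Of the 10 listed, 2 (Siglech and Spib) were at 0 in every library. The 9 listed markers other than Bst2 summed to 20.5 to 27.1 FPKM in Cxcr4+ and 17.1 to 22.9 in Cxcr4- libraries. Markers of T and NK cells, a source of interferon gamma, summed to at most 0.105 FPKM in any library, and 8 of 14 were at 0.

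Downstream of the receptor, 0 of 11 genes for kinases, STATs and brakes passed, with 5 positive and the median at 0.00 on the log2 scale. Jak1 (16.5 to 18.0 against 17.5 to 17.9 FPKM) and Tyk2 (12.2 ± 0.261 against 12.5 ± 0.589, SD, n = 3 each) had log2 fold changes of -0.03 and -0.04. The phosphatase Ptpn6 (Shp1) was the most abundant gene of this list, with 69.5 to 92.8 FPKM and a log2 fold change of 0.02. Ptpn2, a phosphatase that inactivates Jak1, had 7.32 to 8.71 against 6.04 to 7.09 FPKM, without overlap. Its log2 fold change of 0.29 (SE 0.12) had an adjusted p of 0.999 by edgeR. Stat3 did not overlap in the other direction, with 9.45 to 9.89 against 10.4 to 11.1 FPKM (log2 fold change -0.16, SE 0.07, edgeR's adjusted p = 0.999).

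Upstream, 0 of 20 genes of nucleic acid sensing passed, with 11 positive and a median of 0.01. Tlr3, the endosomal sensor of double-stranded RNA, had 0.391 to 0.560 FPKM in Cxcr4+ and 0.160 to 0.332 in Cxcr4- libraries, from 48 to 172 counts. Its log2 fold change was 0.80 (SE 0.31), with an adjusted p of 0.998 by edgeR. Irf5, a factor that drives inflammatory cytokines, had 18.4 to 20.3 against 18.7 to 28.5 FPKM (-0.26, SE 0.18). The sensors Cgas and Ddx58 (RIG-I) and the adaptor Mavs had log2 fold changes of -0.02, 0.02 and 0.03.

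Of 58 other interferon-stimulated genes tested, 0 passed by edgeR, with 35 positive and a median of 0.02. Slfn9, a Schlafen family member, had the smallest p, at 1.40, 2.06 and 1.44 FPKM in Cxcr4+ and 0.701, 0.852 and 1.03 in Cxcr4- libraries (log2 fold change 0.91, SE 0.20, edgeR's adjusted p = 0.737). DESeq2 passed it (adjusted p = 0.0201), and it was higher in every Cxcr4+ library. Ly6e, a membrane protein that blocks viral fusion, was the most abundant at 312 to 414 FPKM (log2 fold change -0.03). Library 2 was lowest in both groups for 25 of the 58 (43.1%, against 14.0% of all genes). For the genes that lean to interferon gamma this held for 4 of 19. Among those 19, 0 passed, 12 were positive and the median was 0.13; Tgtp2, a GTPase, had the smallest p but only 4 to 40 counts (log2 fold change 1.55, SE 0.62). Ifngr2, a subunit of the interferon gamma receptor and the most abundant of that list, had 28.6, 18.6 and 26.6 against 21.4, 16.8 and 22.9 FPKM (0.27, SE 0.21).

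**Figure D4:**
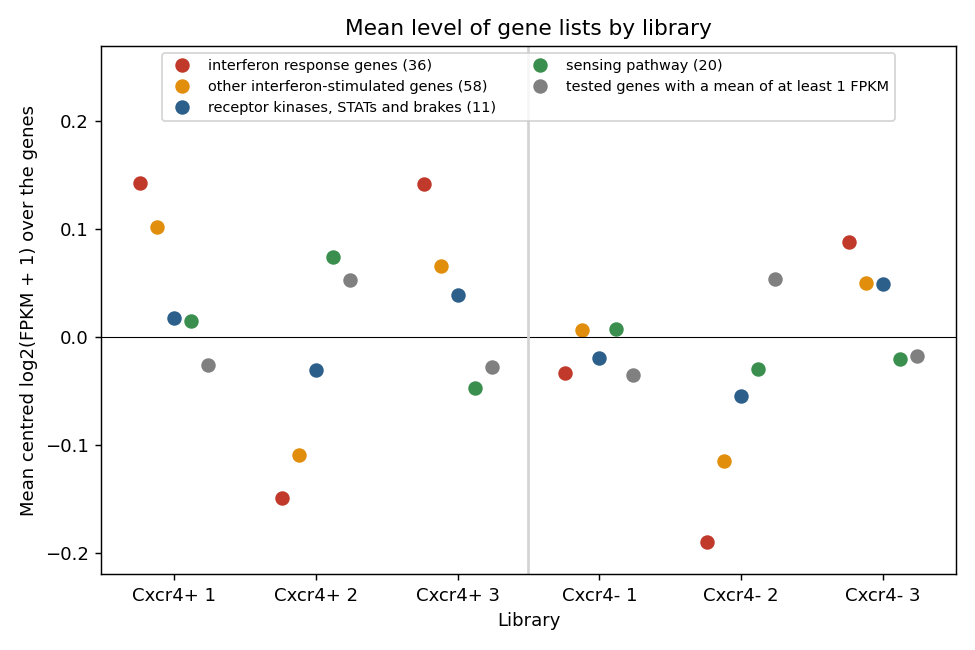
The y axis is the mean of log2(FPKM + 1), centred on each gene's mean over the 6 libraries, and the x axis the library; each point is 1 gene list in 1 library. The 36 interferon response genes lie at -0.15 and -0.19 in the libraries numbered 2, where all tested genes of mean 1 FPKM or more lie at 0.05 in both.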

How the data were processed

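The deposited table held, per the file headers, an estimated count and an FPKM value for each gene in each of 6 libraries. The authors used cutadapt, HISAT2 and StringTie with the build GRCm39, per the submitters' processing notes; their versions, the annotation release and the strand setting are not stated there. The deposited estimated counts were whole numbers, and 43.2% of those from 1 to 20 were multiples of 4, so a floor of 3 fragments was taken as 12 counts. FPKM by the authors was listed at 0.0001 where the count was 0 and was read as 0.

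Counts were filtered (filterByExpr, minimum count 10, minimum total 15), which left 16031 genes and removed at most 0.0581% of the counts of a library, scaled by TMM and tested with edgeR 4.0.16 (quasi-likelihood, group as the sole term, Cxcr4+ minus Cxcr4-, Benjamini-Hochberg over all genes tested, threshold 0.05) in R 4.3.3. Alternatives were DESeq2 1.42.0, limma 3.58.1 on log2(FPKM + 1) and log2(FPKM + 0.1), other scalings, no filter, counts divided by 4, a block for the replicate number or for the libraries numbered 2, and leaving out each library. Leaving out both libraries numbered 2 was chosen after seeing the data. The labels number the libraries 1 to 3 in each group without saying what a number stands for. Deviations from the group means correlated within each number (r = 0.15, 0.28 and 0.12 over 11191 genes of mean 1 FPKM or more). Between unlike numbers r ran from -0.19 to 0.06. The 3 deviations of a group sum to 0, so these values are not independent and cannot settle if the numbers are pairs. The block for the replicate number was therefore kept as an alternative. The values given are from the unpaired fit unless the block is named.

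The members and gene lists were chosen with earlier results of these data known. Genes named by rule were, in each role, the most abundant and the one with the smallest p, the largest fold changes among genes of mean 1 FPKM or more, and genes with near-identical copies. The remaining members were named for completeness. Library depth was 46444934 to 55740671 counts.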

Additional observations from a re-analysis of the deposited data

How the results depend on the processing

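No member passed an adjusted p under 0.05 by edgeR, and the sole call among the alternatives came without Cxcr4- replicate 3, where 1 member, Ifit2, passed as higher (range over the fits without 1 library 0 to 1). The count of members with a positive log2 fold change ranged from 13 to 31 of 36 over those fits, against 49.4 to 51.4% of all genes. With the replicate number as a block, 21 were positive, 0 passed, and the count at an unadjusted p under 0.05 was 8 in place of 2. DESeq2 passed 1 of the other interferon-stimulated genes, Slfn9. Of 23 members named by rule, 13 kept their sign in every alternative run, 15 for Ifit3b, which had no value with counts divided by 4, and 16 for the others. Some of the 23 were named for a small p or a large fold change in these same data, which favours a kept sign. Among the other 10, over the fits without 1 library, the log2 fold change crossed 0 for Ifnar2 (-0.139 to 0.0856), Irf7 (-0.11 to 0.31), Oas1a (-0.0439 to 0.137), Oas2 (-0.44 to 0.12), Dhx58 (-0.251 to 0.0177), Usp18 (-0.199 to 0.0564), Ifitm3 (-0.184 to 0.0227), Parp14 (-0.404 to 0.0090), Dtx3l (-0.0470 to 0.136) and Ifi35 (-0.0722 to 0.149). Oas2 was 0.0025 without the libraries numbered 2, an alternative chosen after seeing the data. The cause was not tested. Low counts limit Ifit1, Ifit3b and Mx1, and with 3 libraries a group a small difference can miss the threshold.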
